A study of Rattus norvegicus with 6 samples.

Results

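Sarcomere and Z-disc genes encode the repeating contractile unit of striated muscle and the proteins that anchor it. The set described here holds 35 genes of the thick filament, thin filament, M-band and Z-disc, chosen by name. A row with that name was found for 33 of them among 32883 named rows of the count table, and all 33 passed the filter on low counts that left 13766 genes for testing. Titin (Ttn) and telethonin (Tcap) were not analysed here. RNA was measured in hearts of wild-type male Sprague–Dawley rats aged 8 weeks and weighing 250 to 300 g. The 3 rats of the ISO group received 1.5 mg/kg/day of ISO under the skin for 7 days, and the 3 control rats received the same volume of saline by the same route for as long; the submitters call the ISO rats the MHF group. The labels do not spell out ISO, which is taken to be isoproterenol, a beta-adrenergic agonist that is used to induce cardiac hypertrophy. The series describes 3 rats a group, and the labels name the tissue only as heart, without the chamber.

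In the sarcomere, myosin-based thick filaments slide along actin-based thin filaments. Troponin and tropomyosin on the thin filament make this sliding depend on calcium, the M-band ties thick filaments together at the centre, and the Z-disc crosslinks thin filaments of neighbouring sarcomeres at the edge. The Z-disc and the nearby I-band of titin also carry LIM-domain and ankyrin-repeat proteins that move between the sarcomere and the nucleus and are known from studies of cardiac load, while in hypertrophy fetal isoforms of contractile genes are known to return in rodent hearts.

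The library totals ranged from 14880391 to 17299589 counts, so counting error was small for most of the set: 32 of the 33 genes had at least 100 counts in every library, and Tnni1 was the exception with 22 to 91 counts. CPM values here are deposited counts scaled to library size with TMM factors, and they are listed in the order of the replicate numbers. Because the tissue is bulk heart, fewer muscle cells and less RNA per muscle cell cannot be told apart. The makeup of the libraries also differed between groups. The 10 fibroblast markers summed to 5348 to 5939.9 CPM in saline and 10568 to 22378 CPM in ISO, with 9 of 10 apart between groups, and the 10 macrophage markers to 365 to 452 CPM in saline and 815 to 1830.5 CPM in ISO, also with 9 apart. Both sums were highest in ISO replicate 3, where 22378 and 1830.5 CPM were measured. ISO replicate 1 had 1128 counts of the atrial light chain gene Myl7, and the other 5 libraries had 0 to 25. Of other marker lists, the test named below called the natriuretic peptide gene Nppa higher among 6 atrial markers and 1 of 8 red cell markers lower. It called none of 10 smooth muscle, 2 skeletal muscle or 8 endothelial markers, and Cldn5 and Myod1 had no counts in any library. Among fibroblast markers it called 3 of 10 higher and among macrophage markers 5 of 10. Their part in the results below was not tested.

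Of the 33 genes, 3 were lower in ISO hearts and none was higher: Fhl2, Nexn and Nebl, which all encode proteins of the Z-disc or the adjoining I-band. The remaining 30 were not called (edgeR quasi-likelihood test, Benjamini-Hochberg adjusted p under 0.05 over all genes tested). Genes of the Z-disc and its periphery made up 21 of the 33. Called genes made up 2.97% of all tested genes, 1.47% higher and 1.5% lower, against 9.09% of this set. The median log2 fold change of ISO over saline was -0.21 in the set and 0.02 over all tested genes, and 24 of the 33 values were negative. In 14 genes every ISO library lay below every saline library, in 3 every ISO library lay above, and in 16 the groups overlapped. Over all tested genes the groups were apart in 28.8%, with ISO below in 14.6% and ISO above in 14.1%. The share with ISO below was thus 42.4% in the set. An unadjusted p under 0.05 was reached by 14 of the 33 genes and by 22.9% of all tested genes. DESeq2 called 11 of the 33 lower and none higher, where it called 10.2% of all tested genes, 4.74% lower and 5.46% higher. These 11 were the 3 above with Tpm1, Myom1, Myom3, Myoz2, Synpo2l, Flnc, Pdlim5 and Cmya5. Limma-voom called the same 3 genes as edgeR, where it called 2.39% of all tested genes.

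Heart muscle genes outside the sarcomere were read beside the set. Of 19 tested cardiomyocyte genes outside the sarcomere, 17 had negative values, none was called, 7 had an unadjusted p under 0.05 (2 were called by DESeq2 and none by voom), and 9 had ISO below saline throughout, with a list median of -0.34. Results with libraries scaled to these genes stand at the end.

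**Figure D1:**
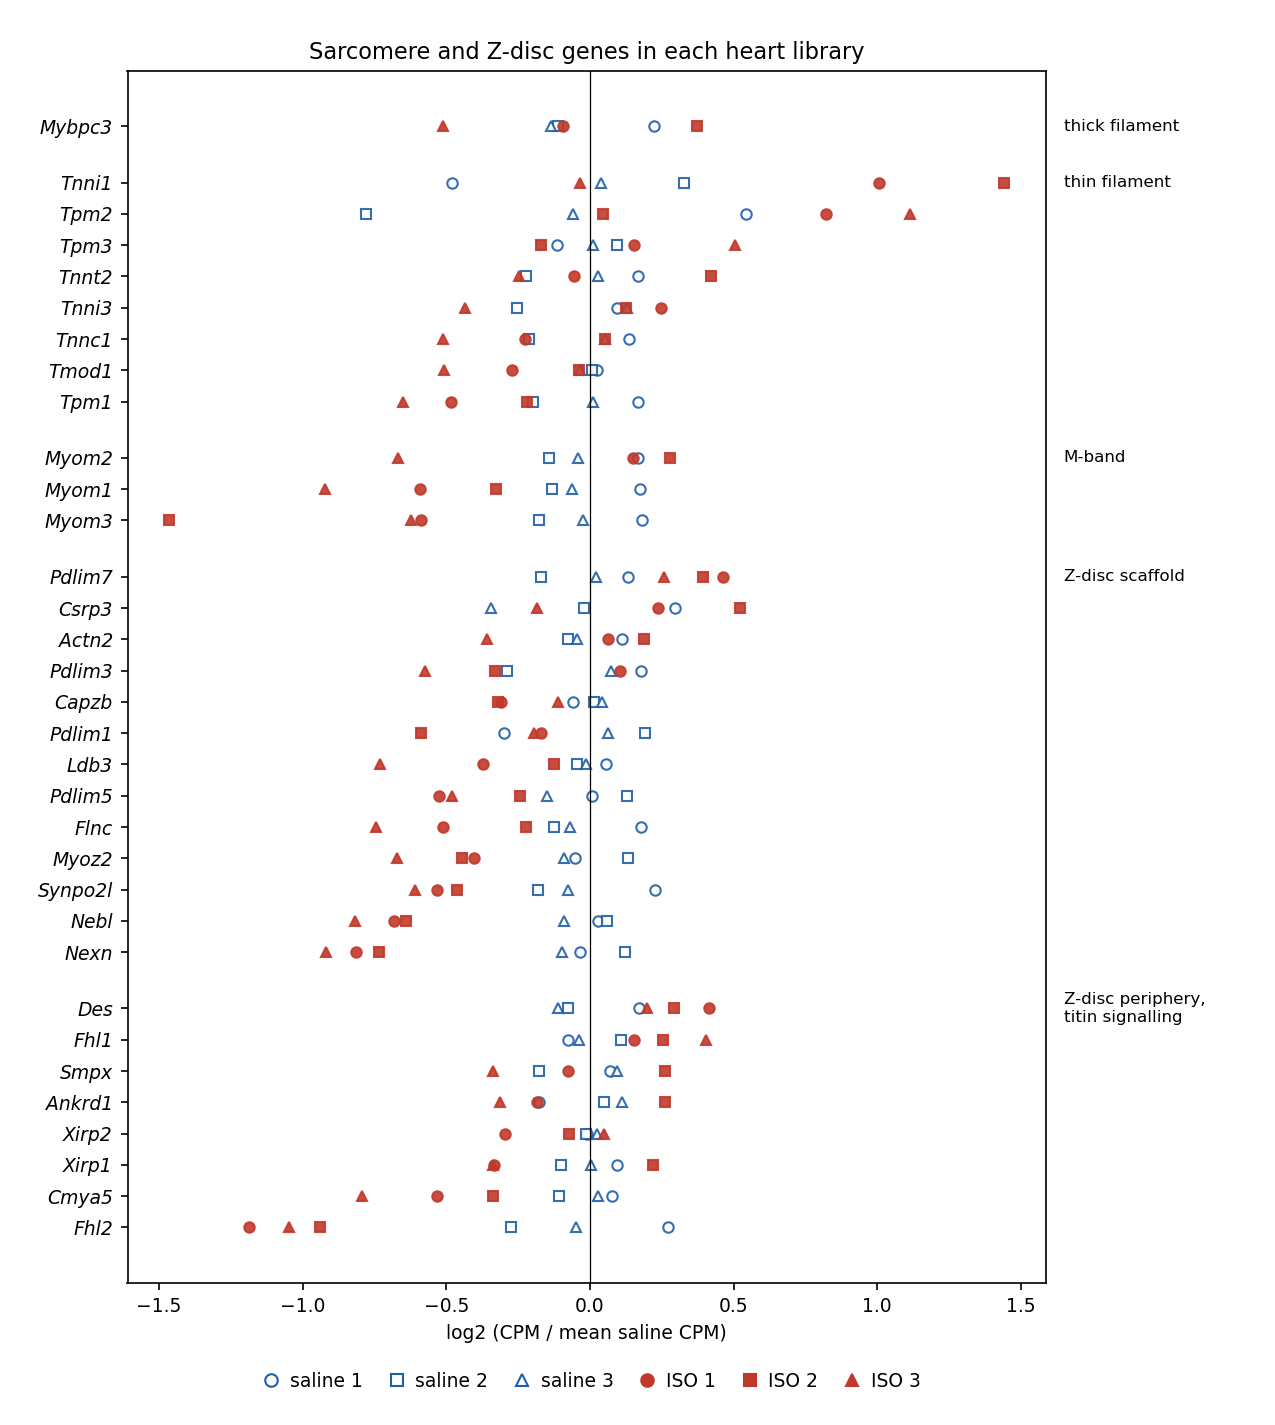
The plot shows each sarcomere and Z-disc gene as log2 of its CPM in a library over its mean saline CPM, with open symbols for the 3 saline and filled symbols for the 3 ISO libraries. Fhl2, Nexn and Nebl have all ISO symbols left of all saline symbols, while ISO symbols of Mybpc3, Tnnt2 and Myom2 lie on both sides of the saline ones.

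The 3 called genes hold different places in the structure. Fhl2 encodes a LIM-only protein that binds titin in the I-band and acts as a transcriptional cofactor in the nucleus (ENSRNOG00000016866). It stood at 1842, 1263 and 1474 CPM across the 3 saline hearts against 669.7, 795 and 738 CPM across the 3 ISO hearts. Its groups did not overlap, with the highest ISO library below the lowest saline library, and saline spread more than ISO. The change was -1.06 (SE 0.17, edgeR adjusted p = 0.0207), which is 0.481-fold, from 1526 ± 293 to 735 ± 63.0 CPM (SD, n = 3).

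Nexn encodes nexilin, an actin-binding protein of the Z-disc and of the junctions with the sarcoplasmic reticulum (ENSRNOG00000012512). It was measured at 449, 502 and 431 CPM across the 3 saline hearts against 262, 277 and 244 CPM across the 3 ISO hearts. Both groups were narrow and did not overlap. Its change was -0.82 (SE 0.12, edgeR adjusted p = 0.0168), or 0.566-fold. Nebl encodes nebulette, the cardiac relative of nebulin that links thin filaments to the Z-disc (ENSRNOG00000049452). Nebl libraries gave 266, 272 and 245 CPM under saline and 163, 168 and 148 CPM under ISO. These groups were also narrow and apart, with a change of -0.71 (SE 0.11, edgeR adjusted p = 0.019), or 0.611-fold. The 3 calls did not hold in every fit without 1 library: each was lost without any 1 saline library or without ISO replicate 1, with edgeR adjusted p between 0.0527 and 0.104 in those fits, where 0.0852% to 0.185% of all genes were called. Each was kept without ISO replicate 2 or 3. Without ISO replicate 2, Cmya5, Flnc and Myom1 were also lower, where 5.95% of all genes were called. Their log2 fold changes in these 6 fits stayed between -1.18 and -0.90 for Fhl2, -0.87 and -0.76 for Nexn and -0.76 and -0.66 for Nebl.

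The sequences before the start sites of Fhl2, Nexn and Nebl are shown because these are the 3 genes called lower, and that of the related gene Fhl1 because its log2 fold change had the opposite sign. They are the 250 bases before each annotated start in RefSeq (build GRCr8, all read 5′ to 3′ on the gene's own strand). Fhl2 and Fhl1 each have 2 starts in the table. The Fhl2 starts are both shown, with sequences at chr9:52954541-52954790 and chr9:52923327-52923576 on the minus strand, the Fhl1 start with matches is shown at chrX:139638246-139638495 on the plus strand and Nexn at chr2:243878153-243878402 and Nebl at chr17:85135297-85135546, both on the minus strand. Capitals mark matches on either strand to the CArG box bound by SRF, the MEF2 site, CATTCC (the MCAT element bound by TEAD factors), GATAA (bound by GATA factors) and TATAAA.
Fhl2, upstream start: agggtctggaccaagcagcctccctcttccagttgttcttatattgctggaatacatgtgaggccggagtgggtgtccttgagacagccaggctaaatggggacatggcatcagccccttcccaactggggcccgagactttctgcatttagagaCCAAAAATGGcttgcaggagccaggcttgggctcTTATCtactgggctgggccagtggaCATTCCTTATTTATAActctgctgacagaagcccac
Fhl2, downstream start: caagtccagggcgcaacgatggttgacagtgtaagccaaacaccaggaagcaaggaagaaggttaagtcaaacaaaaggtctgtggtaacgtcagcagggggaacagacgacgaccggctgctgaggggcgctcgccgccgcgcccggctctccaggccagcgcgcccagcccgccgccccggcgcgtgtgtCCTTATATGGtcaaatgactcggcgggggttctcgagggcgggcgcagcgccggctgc
Fhl1: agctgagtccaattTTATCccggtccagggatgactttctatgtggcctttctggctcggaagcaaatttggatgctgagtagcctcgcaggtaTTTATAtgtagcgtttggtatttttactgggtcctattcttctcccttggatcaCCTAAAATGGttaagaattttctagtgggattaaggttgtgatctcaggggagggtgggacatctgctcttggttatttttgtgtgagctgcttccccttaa
Nexn: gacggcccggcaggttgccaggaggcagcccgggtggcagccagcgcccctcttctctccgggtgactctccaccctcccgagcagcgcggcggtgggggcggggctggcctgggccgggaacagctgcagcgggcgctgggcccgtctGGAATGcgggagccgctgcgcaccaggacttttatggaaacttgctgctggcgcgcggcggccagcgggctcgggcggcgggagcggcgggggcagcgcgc
Nebl: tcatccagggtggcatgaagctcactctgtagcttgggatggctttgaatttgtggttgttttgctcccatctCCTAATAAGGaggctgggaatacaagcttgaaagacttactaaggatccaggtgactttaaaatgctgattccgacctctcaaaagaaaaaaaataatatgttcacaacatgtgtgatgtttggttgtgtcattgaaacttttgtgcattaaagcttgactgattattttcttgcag

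The upstream Fhl2 sequence held a match to each of the 5 motifs. Its CArG box began 95 bases before the start and its GATAA match 61 bases before it. CATTCC at 36 bases was followed directly by the MEF2 site at 30 bases, and the TATAAA match lay inside that MEF2 site, so these letters were counted under both. The downstream Fhl2 sequence held a CArG box at 58 bases, the Fhl1 sequence shown a CArG box at 102 bases, Nebl a CArG box at 177 bases and Nexn only CATTCC at 101 bases. That Fhl1 sequence also held GATAA at 236 bases and TATAAA at 156 bases. The window of the other Fhl1 start held no match to any of the 5 motifs and is not printed. Matches were counted on both strands over windows of 300 bases that reach 50 bases past the start. Such windows were matched by symbol for 29 of the 35 genes, Ttn included, 36 windows in all. A CArG box was in 5 of these windows, of Fhl1, Fhl2 (both starts), Ldb3 and Nebl, and in 1.64% of all 33469 rat windows. A MEF2 site was in 10 of the 36 and in 3.29% of all windows, CATTCC in 6 and 14.19%, GATAA in 10 and 26.54%, and TATAAA in 2 and 14.22%. The MEF2 windows belong to 9 genes and so do the GATAA windows, since overlapping Xirp1 windows hold the same matches. Over the 11202 windows of genes that were tested, the shares were 1.35% for the CArG box, 1.66% for MEF2, 11.02% for CATTCC, 16.86% for GATAA and 7.23% for TATAAA. Which start is used in these hearts was not measured. These matches are letters in a window, and no binding was measured.

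Among thin filament genes, none of 8 was called and the median log2 fold change was 0.04. The adult troponin genes had overlapping groups. Tnnt2, the tropomyosin-binding subunit, stood at 6175, 4711 and 5607 CPM across the 3 saline hearts against 5291, 7364 and 4634 CPM across the 3 ISO hearts. ISO libraries lay on both sides of saline, so its 0.07 (SE 0.21) did not exceed the spread. Tnni3, the inhibitory subunit of adult heart, gave 0.01 (SE 0.21) and Tnnc1, the calcium-binding subunit, gave -0.21 (SE 0.18). Tnnc1 is the middle gene of the set, so its value is the median of the set by definition. Tnni1, the inhibitory subunit of fetal heart and slow skeletal muscle, had 22, 42 and 34 counts in the saline hearts, and 67, 91 and 35 counts in the ISO hearts. ISO replicate 3 lay within the saline range, and its 0.92 (SE 0.41, edgeR adjusted p = 0.231) was not called.

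Tropomyosins, which block or expose the myosin sites on actin, did not share a sign. Tpm1, the main tropomyosin of rodent heart muscle, stood at 6774, 5259 and 6084 CPM across the 3 saline hearts against 4319.6, 5189.6 and 3850.0 CPM across the 3 ISO hearts. Its ISO libraries were all below saline, though ISO replicate 2 lay close to saline replicate 2, and its -0.44 (SE 0.18, edgeR adjusted p = 0.195) was not called by edgeR but was by DESeq2 (adjusted p = 0.0471). Tpm2, which smooth muscle and fibroblasts also express, gave 45.4, 18.1 and 29.9 CPM under saline and 55.1, 32.2 and 67.4 CPM under ISO, with a change of 0.73 (SE 0.35) and overlapping groups. Tpm3 gave 0.19 (SE 0.17) and was highest in ISO replicate 3 at 117 CPM, the library with the most fibroblast marker RNA. The 10 smooth muscle markers summed to 881 to 987 CPM in saline and 884 to 938 CPM in ISO. These markers did not share a sign, with 5 positive, 5 negative and none called. The 3 with an unadjusted edgeR p under 0.05 were all positive: Tagln at 0.58, Cnn1 at 0.90 and Lmod1 at 0.77. Tagln and Acta2 were highest in ISO replicate 3, at 111 and 112 CPM, as Tpm2 was. Myh11, Smtn, Synpo2 and Mylk were at their lowest of all libraries there, at 88.9, 129, 164 and 70.4 CPM. A link of Tpm2 to these markers was not tested. Tmod1, which caps the pointed end of the thin filament, was at -0.26 (SE 0.13) with ISO below saline in all libraries, the nearest being 229.5 CPM in ISO against 230.3 CPM in saline.

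Myosin heavy chain genes are described below with other sarcomere genes. In this set the thick filament was represented by Mybpc3 alone, the gene of cardiac myosin-binding protein C, which tunes the speed of crossbridge cycling. It stood at 3476, 2756 and 2710.4 CPM across the 3 saline hearts against 2792, 3858 and 2089 CPM across the 3 ISO hearts. ISO held both the highest and the lowest of the 6 values, and the change was -0.03 (SE 0.23, edgeR adjusted p = 0.952).

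The 3 myomesins, which crosslink thick filaments at the M-band, had unequal values. Myom1, the form found in all striated muscle, stood at 883, 715 and 749.8 CPM across the 3 saline hearts against 519, 624 and 413 CPM across the 3 ISO hearts. All ISO libraries were below all saline libraries. Its -0.59 (SE 0.17, edgeR adjusted p = 0.0961) was not called by edgeR but was by DESeq2 (adjusted p = 0.0111). Among edgeR fits without 1 library, only that without ISO replicate 2 called it (edgeR adjusted p = 0.0405), where 5.95% of all genes were called. Its edgeR adjusted p reached 0.248 in the other such fits. Myom2, also called M-protein, stood at 2489, 2009 and 2151 CPM across the 3 saline hearts against 2459, 2690.4 and 1394 CPM across the 3 ISO hearts. Its groups overlapped, with ISO replicate 3 the lowest, and its change was -0.02 (SE 0.24). Myom3, the myomesin of some slow and embryonic muscle, gave 25.7, 20.1 and 22.4 CPM under saline and 15.1, 8.23 and 14.8 CPM under ISO. These groups were also apart, and the change of -0.84 (SE 0.23, edgeR adjusted p = 0.0849) was not called by edgeR but was by DESeq2 (adjusted p = 0.0138).

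Ratios of related genes within a library do not depend on library scaling, and 7 pairs were compared, with no test. Myom2 counts per 100 Myom1 counts were 282, 281 and 287 in saline replicates 1 to 3 and 474, 431 and 338 in ISO replicates 1 to 3. The saline libraries were nearly equal and every ISO library was higher, a mean difference of 0.53 on the log2 scale. Fhl1 counts per 100 Fhl2 counts were 16.0, 26.6 and 20.6 in saline replicates 1 to 3 and 51.7, 46.7 and 55.7 in ISO replicates 1 to 3, with the groups apart and a mean log2 difference of 1.31. Pdlim7 counts per 100 Pdlim5 counts were 21.7, 16.2 and 22.4 in saline replicates 1 to 3 and 39.5, 31.0 and 33.2 in ISO replicates 1 to 3, again apart, with a mean log2 difference of 0.79. In every ISO library Fhl1 and Pdlim7 lay above saline and Fhl2 and Pdlim5 below it, so their ratios had to be apart. The ratios of Tnni1 to Tnni3, Tpm2 to Tpm1, Tpm3 to Tpm1 and Myom3 to Myom1 overlapped between groups.

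**Figure D2:**
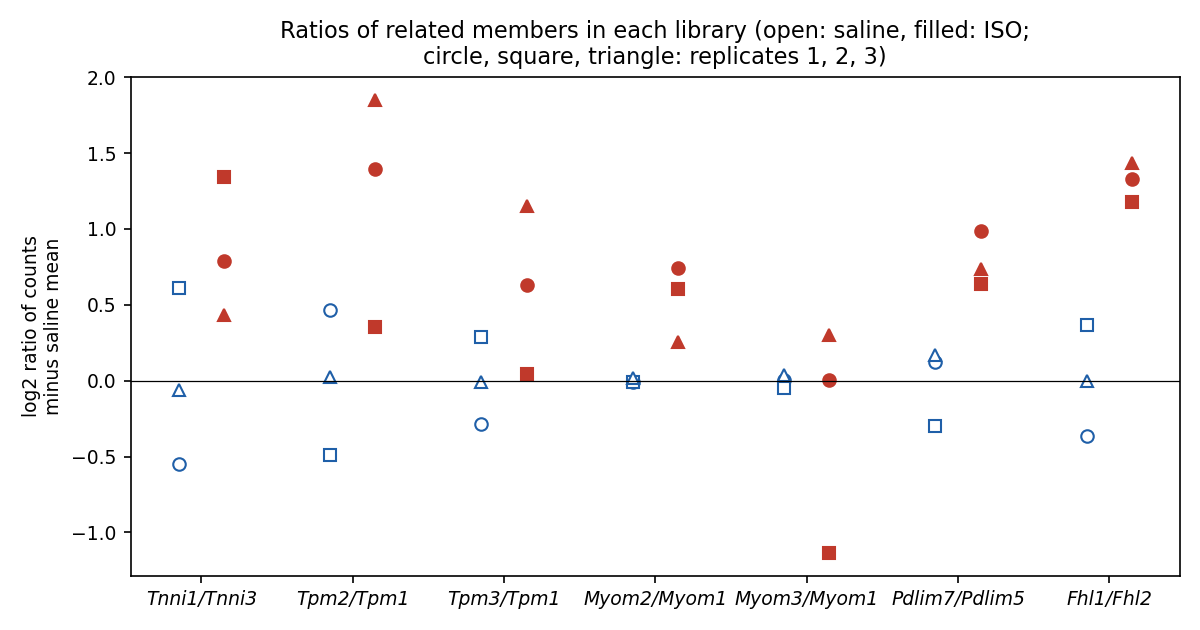
Each point is the log2 ratio of counts of 2 related genes in 1 library, minus the mean of the 3 saline libraries for that ratio. The ISO points lie above all saline points for Myom2/Myom1, Pdlim7/Pdlim5 and Fhl1/Fhl2 and overlap them for the other 4 ratios.

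In the Z-disc scaffold, 2 of 13 genes were called lower, 11 of 13 had negative values, 8 had ISO below saline in all libraries, and the median was -0.39. Over all tested genes, 1.5% were called lower, 47.7% had negative values and 14.6% had ISO below saline throughout. For cardiomyocyte genes outside the sarcomere, 89.5% were negative and 47.4% had ISO below saline throughout. Their median was -0.34, so a lean to negative values was not particular to the Z-disc. Actn2, the alpha-actinin that crosslinks thin filaments and forms the core of the Z-disc, was not called. It stood at 2205, 1935 and 1977 CPM across the 3 saline hearts against 2132, 2324 and 1591 CPM across the 3 ISO hearts, with ISO replicate 3 the lowest and ISO replicate 2 the highest, and its change was -0.02 (SE 0.17). Myoz2, a calsarcin that tethers calcineurin to alpha-actinin, stood at 826, 939.6 and 804 CPM across the 3 saline hearts against 648, 628 and 537 CPM across the 3 ISO hearts. Those groups were apart, and its -0.50 (SE 0.13, edgeR adjusted p = 0.0758) was called by DESeq2 (adjusted p = 0.00288) and not by edgeR. Synpo2l, an actin- and alpha-actinin-binding protein of the synaptopodin family, stood at 191, 144 and 155 CPM under saline and 113, 118 and 107 CPM under ISO. It too had separate groups, at -0.53 (SE 0.13, edgeR adjusted p = 0.0655).

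Flnc, the muscle filamin that links the Z-disc to the cell membrane, gave -0.48 (SE 0.16), Pdlim5, a PDZ-LIM scaffold, gave -0.41 (SE 0.13) and Ldb3, the PDZ-LIM protein also known as Cypher or ZASP, gave -0.39 (SE 0.17). All ISO libraries were below saline for these 3 genes and for Capzb, the subunit of the protein that caps thin filaments at the Z-disc, at -0.24 (SE 0.11). None of the 4 was called by edgeR, and DESeq2 called Flnc and Pdlim5. Pdlim1 at -0.31 (SE 0.16) and Pdlim3 at -0.24 (SE 0.19), PDZ-LIM proteins that bind alpha-actinin, had overlapping groups.

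Pdlim7 and Csrp3 were the only scaffold genes with positive values, and the sign of both was positive under every alternative run. Pdlim7, a PDZ-LIM protein also known as enigma that is expressed in many tissues, stood at 66.2, 53.7 and 61.3 CPM across the 3 saline hearts against 83.3, 79.3 and 72.2 CPM across the 3 ISO hearts. Each ISO library was above each saline library, and the change was 0.37 (SE 0.12, edgeR adjusted p = 0.109). Csrp3, the muscle LIM protein whose loss causes dilated cardiomyopathy in mice, gave 508, 407 and 326 CPM under saline and 487, 594 and 364 CPM under ISO and 0.22 (SE 0.22), with overlapping groups.

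Of 8 genes of the Z-disc periphery and titin signalling, Fhl2 was the only one called, and the median was -0.08. Cmya5, or myospryn, a desmin- and alpha-actinin-binding protein, stood at 681, 599 and 658 CPM across the 3 saline hearts against 446, 512 and 373 CPM across the 3 ISO hearts. Its groups were apart and it was called by DESeq2 (adjusted p = 0.00488) but not by edgeR, at -0.54 (SE 0.14, edgeR adjusted p = 0.0775). Fhl1, the LIM-only relative of Fhl2 that also binds titin, stood at 295, 335 and 303 CPM under saline and 346, 371 and 411 CPM under ISO, above saline in each ISO library, with a change of 0.27 (SE 0.12, edgeR adjusted p = 0.215). Des, the gene of desmin, the intermediate filament that joins Z-discs sideways, stood at 2428, 2048 and 2000.4 CPM across the 3 saline hearts against 2879.9, 2645 and 2477 CPM across the 3 ISO hearts. ISO was again above saline throughout, at 0.31 (SE 0.15, edgeR adjusted p = 0.254).

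Ankrd1, the ankyrin-repeat protein of the titin I-band, ranged from 1461 to 2175 CPM with no separation, at -0.06 (SE 0.18). Xirp1 and Xirp2, actin-binding Xin-repeat proteins of the intercalated disc and Z-disc, gave -0.13 (SE 0.17) and -0.10 (SE 0.12). Smpx, a small muscle protein, gave -0.03 (SE 0.17). These 4 genes had overlapping groups and changed sign under at least 1 alternative.

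The ISO libraries were not alike. Among the 3 of them, ISO replicate 2 was the highest for 21 of the 33 genes and ISO replicate 3 the lowest for 24. In the set as a whole, the median difference from the saline mean on the log2 scale was -0.22, -0.07 and -0.47 in ISO replicates 1 to 3. The spread relative to the mean was larger in ISO than in saline for 26 of 33 genes. Together the 33 genes took 4.08%, 3.19% and 3.55% of named counts in saline and 3.60%, 3.92% and 2.96% in ISO, and these shares overlapped. The SD of the ISO group was 8.57% of its mean for Fhl2, 6.40% for Nexn and 6.31% for Nebl, and 24.7% for Tnnt2 and 30.6% for Mybpc3. Some genes that were not called were as narrow, with 5.09% for Synpo2l, 7.18% for Pdlim7 and 7.59% for Des. The test weighs a change against the spread, so a narrow spread in called genes is partly set by the call.

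Other genes of the sarcomere were read from a list of 50, of which 42 were tested. In it 3 were lower and 1 higher, 38 were not called, and the median was -0.13. Among those 38 were the myosin heavy chain genes Myh7 and Myh6, the myosin light chain gene Myl3 and the skeletal actin gene Acta1. Myh7 averaged 2287 CPM under saline and 4596 CPM under ISO without overlap, at 1.01 (SE 0.27, edgeR adjusted p = 0.0791). Myh6 gave -0.57 (SE 0.23, edgeR adjusted p = 0.195) with overlapping groups. DESeq2 called Myh7 higher (adjusted p = 0.00119) and Myh6 lower (adjusted p = 0.0380). Myl3 gave -0.21 (SE 0.22, edgeR adjusted p = 0.606) and Acta1 gave 0.22 (SE 0.27, edgeR adjusted p = 0.674). Both had overlapping groups, and DESeq2 called neither. Cardiac actin (Actc1) was lower at -1.18 (SE 0.16, edgeR adjusted p = 0.0161); its sequence is close to that of skeletal actin, Acta1, and no source used here says how reads shared by both were counted. Cavin4, a muscle caveolar protein found near the Z-disc, was lower at -0.97 (SE 0.12, edgeR adjusted p = 0.0142). Speg, a muscle kinase related to the myosin light chain kinases, was lower at -0.85 (SE 0.17, edgeR adjusted p = 0.0435). Myoz1, the calsarcin of fast skeletal muscle and a relative of Myoz2, was higher at 1.73 (SE 0.37, edgeR adjusted p = 0.0498). It had few reads, with 0.817, 0.688 and 1.33 CPM under saline and 3.07, 3.87 and 2.51 CPM under ISO, and voom did not call it. The skeletal muscle markers, 9 of 12 with a row, summed to 5.72 to 6.95 CPM in saline and 7.42 to 9.22 CPM in ISO, without overlap. Their part in the Myoz1 value was not tested. None of the 42 genes was called without any 1 saline library or without ISO replicate 1, and without ISO replicate 2 there were 3 higher and 5 lower.

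Among 22 tested genes of sarcomere assembly and turnover, a list that includes Xirp1 and Pdlim5, 3 were lower, 1 was higher and 18 were not called, with a median of -0.15. Fbxl22, a cardiac F-box protein of the Z-disc for which alpha-actinin 2 and filamin C are known substrates, was lower at -1.56 (SE 0.11, edgeR adjusted p = 0.00262). Trim55, the ubiquitin ligase MuRF2 that associates with titin and microtubules, stood at 148, 165 and 148 CPM across the 3 saline hearts against 88.2, 88.1 and 74.3 CPM across the 3 ISO hearts and was lower at -0.88 (SE 0.11, edgeR adjusted p = 0.0142). Cap2, a regulator of actin filament turnover, was lower at -0.75 (SE 0.11, edgeR adjusted p = 0.019). Klhl40, a Kelch protein that stabilises leiomodin and nebulin in skeletal muscle, was higher at 2.74 (SE 0.18, edgeR adjusted p = 0.00168), with 6.88, 6.94 and 6.44 CPM under saline and 50.2, 51.0 and 34.2 CPM under ISO. Trim63 and Fbxo32, the ubiquitin ligase genes known from muscle atrophy and picked for that after their values were seen, gave -0.37 (SE 0.20) and -0.14 (SE 0.13) and were not called. Without any 1 saline library or without ISO replicate 1, the list had 1 gene lower and 1 higher.

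**Figure D3:**
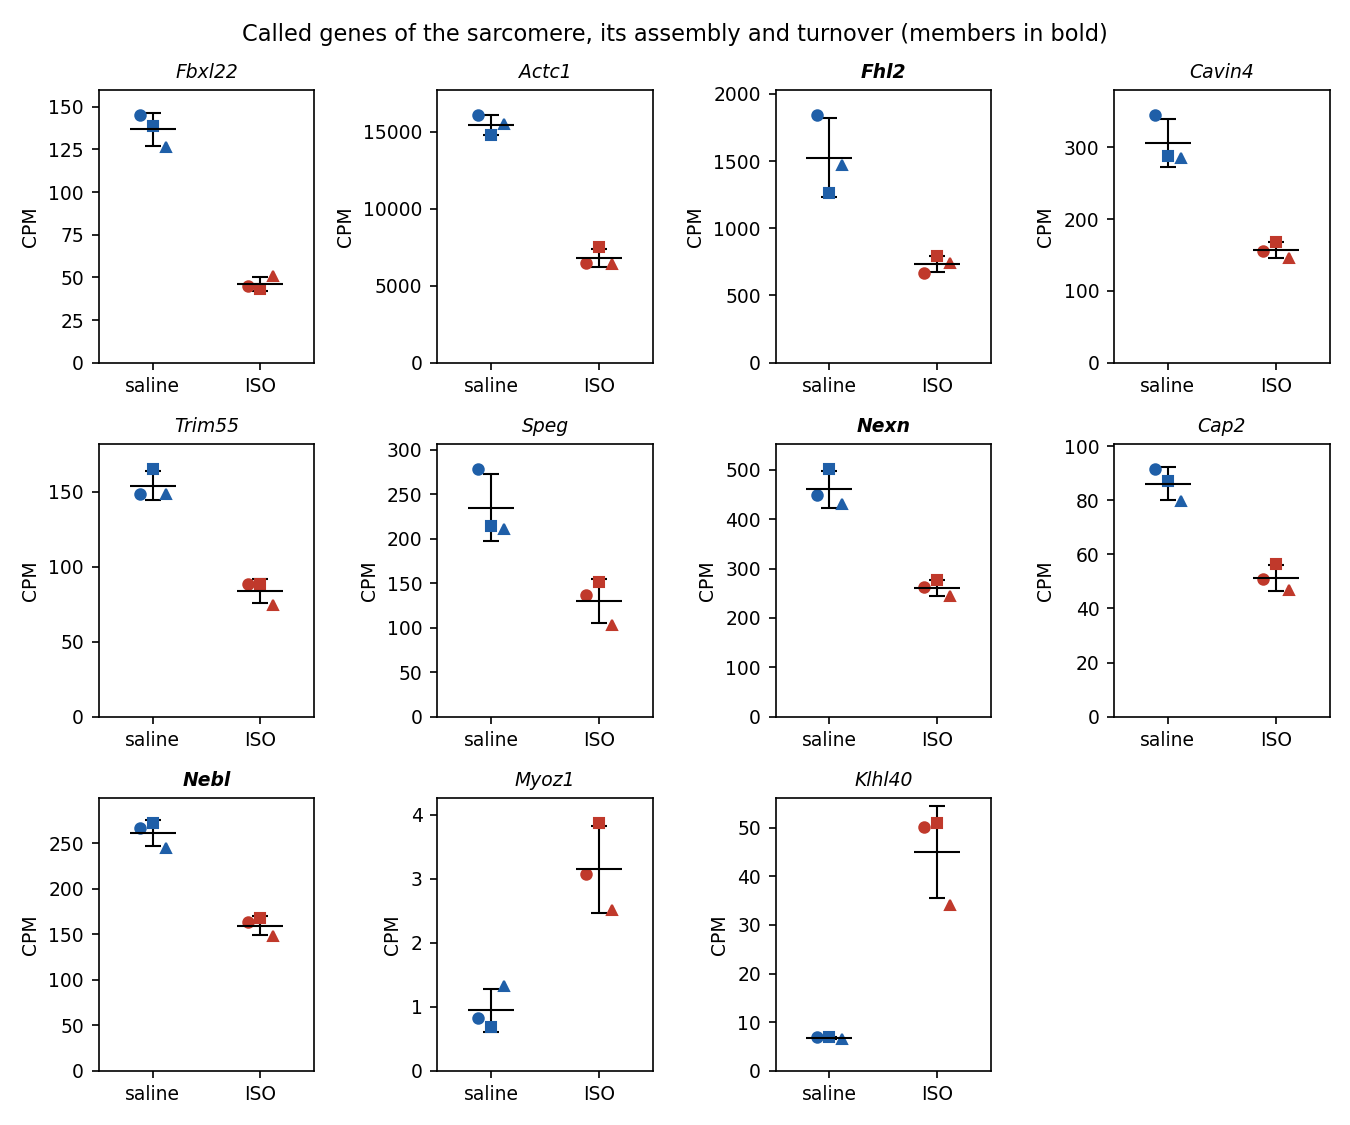
Each panel gives the CPM of a called gene in 3 saline and 3 ISO libraries (points), with the group mean and SD (bars) and the axis starting at 0. The 9 genes called lower have all ISO points below all saline points, and Myoz1 and Klhl40 have all ISO points above them.

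The sign of many values depended on how libraries were scaled. With no scaling beyond the library total, the median of all genes was 0.13 and that of the set -0.11, with 15 of 33 values positive. The same 3 genes were called, and all genes split into 280 higher and 123 lower instead of 203 and 206. When libraries were scaled to 18 cardiomyocyte genes outside the sarcomere averaging 10 CPM or more, a setting chosen after the data were seen, the median of the set became 0.07 and that of all genes 0.32. In this fit 1 gene was lower and none higher, where 0.189% of all genes were called lower and 2.11% higher. The gene was Fhl2, at -0.75 (SE 0.15, edgeR adjusted p = 0.0448). Nexn stood at -0.53 and Nebl at -0.42, no longer called (edgeR adjusted p = 0.0687 and 0.103). Des and Pdlim7 gave 0.61 and 0.67 (edgeR adjusted p = 0.0528 and 0.051), and 12 genes with values below 0 under TMM scaling, among them Actn2, Mybpc3 and Myom2, were above 0. The planned form of this scaling also used Lrrc10, a gene of 0.125 to 5.20 CPM. It called 5 genes higher (Csrp3, Fhl1, Des, Pdlim7 and Tpm2) and Fhl2 lower, where 15.4% of all genes were called higher and 0.356% lower, and without Lrrc10 none of the 5 was called.

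**Figure D4:**
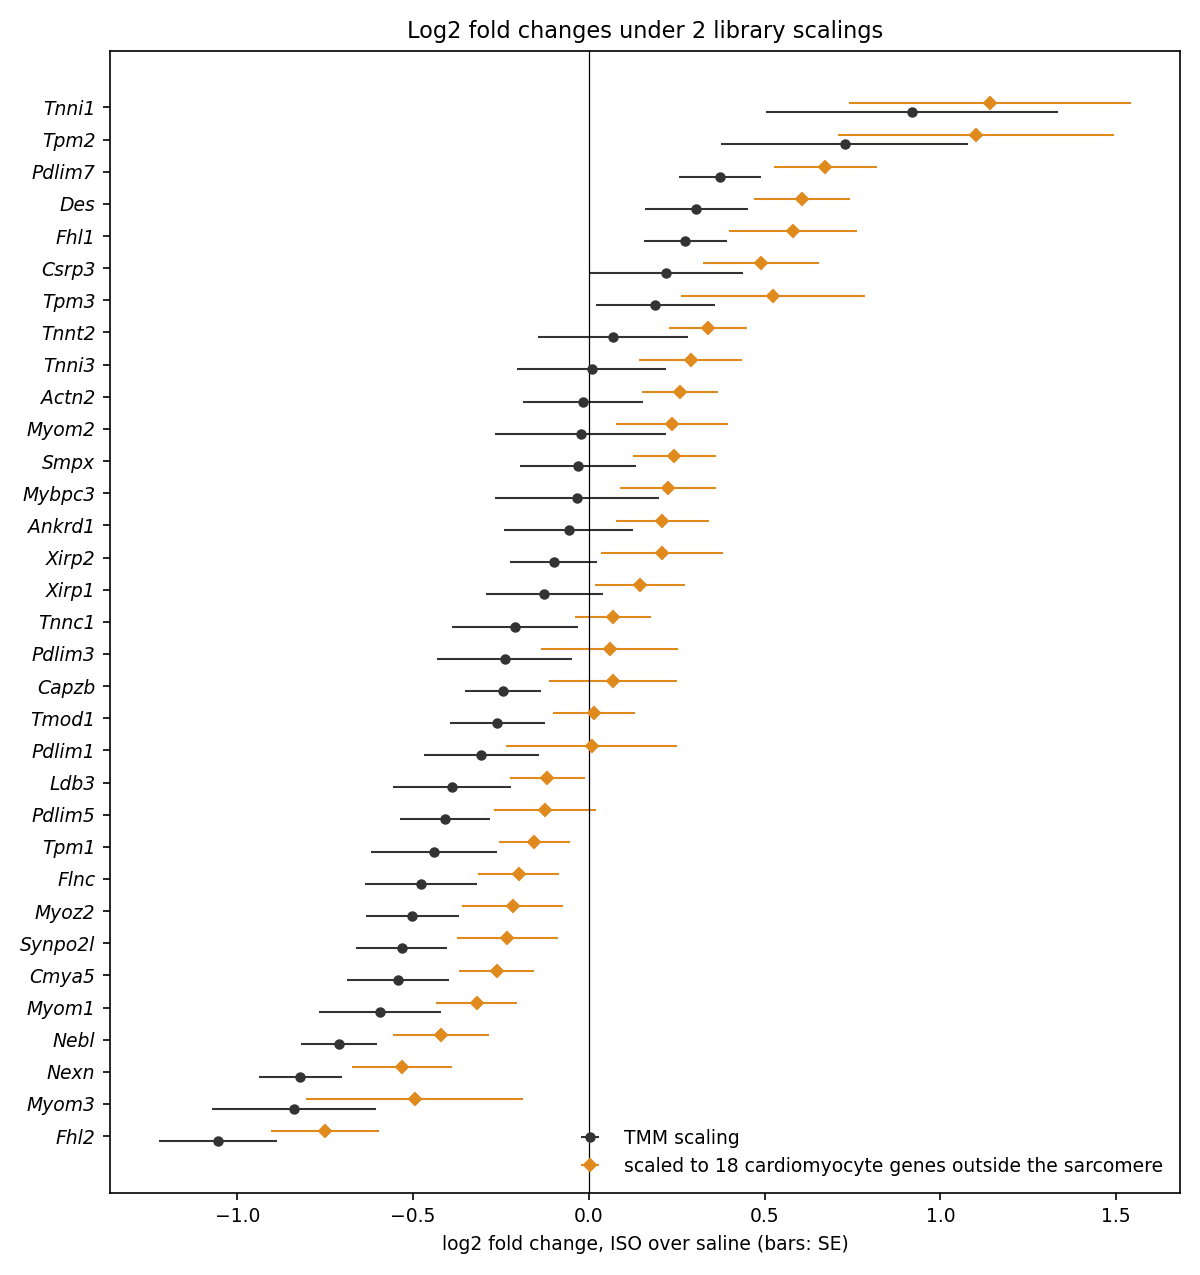
Log2 fold changes of ISO over saline with their SE are drawn for each gene under TMM scaling (circles) and after scaling to 18 cardiomyocyte genes outside the sarcomere (diamonds). All diamonds lie to the right of their circles, and Fhl2 stays lowest under both, at -1.06 and -0.75.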

How the data were processed

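RNA from 6 rat hearts was sequenced as paired reads of 150 bases. Reads were aligned to the rat genome with HISAT2 and assigned with featureCounts, per the series' design text, while the submitters' processing notes name the mouse build mm10; the gene identifiers are rat Ensembl ones. The deposited table holds whole-number counts per gene, and no source used here gives the authors' strand setting, which leaves reads of a gene and of one overlapping it on the other strand indistinguishable. Of its 33889 rows, 1006 without a gene name were left out, 0.98% to 1.32% of the counts of a library. For a repeated name the row with the largest total was taken.

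Counts were filtered with filterByExpr, scaled by TMM and tested with edgeR 4.0.16 (quasi-likelihood F test, all genes, Benjamini-Hochberg) in R 4.3.3. Fold changes compare ISO with saline on the log2 scale, and SE is the size of the change divided by the square root of F. DESeq2 1.42.0 and limma-voom 3.58.1 were alternatives, as were other scalings and filters, a replicate block, and leaving out each library. Tests were first run on simulated counts. False calls there numbered 13 among 132 for edgeR, 40 among 177 for DESeq2 and 12 among 125 for limma-voom. At a simulated 1.5-fold change, edgeR picked up 4% of changed genes, DESeq2 24% and limma-voom 2%. At a 2-fold change these shares were 48%, 60% and 44%. P-values cover the spread between these hearts only. No 2 libraries agreed within sampling noise (the lowest chi-square per gene over 15 pairs was 20.0).

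The genes, lists and tests were chosen with earlier results of these data known. All 33 genes are described by role, together with every called gene of the other sarcomere and assembly and turnover lists. Marker lists of fibroblasts, macrophages, smooth muscle, skeletal muscle, endothelium, red cells, atrial muscle and heart muscle outside the sarcomere are given as sums or counts. Promoter sequences and coordinates are from RefSeq on GRCr8, and Ttn and Tcap counts were not analysed here.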

Additional observations from a re-analysis of the deposited data

How the results depend on the processing

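Fhl2, Nexn and Nebl kept negative values under every alternative run. They were called, and no other gene of the set, under DESeq2 size factors, limma-voom, no scaling, either filter on low counts and without mitochondrial genes. DESeq2 called 11 lower, the series' own rule (DESeq2 unadjusted p and size of change) 8 lower and 2 higher (623 lower and 1214 higher of all 13766 genes), and an adjusted p under 0.01 none. Scaling to cardiomyocyte genes left 1 lower, with 5 higher in the planned form, and turned the median to 0.17 in the planned form and 0.068 with genes of at least 10 CPM (added after seeing the data). Leaving out 1 library gave 0 to 6 lower.

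For other sarcomere genes, higher calls were 6 and 3 under the 2 cardiomyocyte scalings, 2 without a filter, 5 with DESeq2, 0 with voom, 5 by the series' rule, 0 at 0.01 and 0 to 3 without 1 library. Lower calls were 7 with DESeq2, 7 by the series' rule, 0 at 0.01 and 0 to 5 without 1 library. Among assembly and turnover genes, the planned cardiomyocyte scaling called 3 higher. Lower calls there were 1 under the added scaling, 6 with DESeq2, 1 at 0.01 and 1 to 4 without 1 library.

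With the replicate number as a block, edgeR called 0 genes of the set lower (adjusted p = 0.0764 for Fhl2, 0.0622 for Nexn and 0.072 for Nebl), 0 other sarcomere genes in either direction and 1 assembly and turnover gene lower. Same-numbered libraries deviated with correlations of 0.09, -0.13 and 0.01, and not every library correlated best with its own number, so the numbers were not taken as pairs.

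Of the values that changed sign, those with no scaling were Mybpc3 0.058, Myom2 0.072, Actn2 0.083, Ankrd1 0.045, Xirp2 0.0080 and Smpx 0.068. Under the planned cardiomyocyte scaling they were Mybpc3 0.34, Tnnc1 0.17, Tmod1 0.12, Myom2 0.34, Actn2 0.36, Capzb 0.17, Pdlim1 0.093, Pdlim3 0.14, Ankrd1 0.32, Xirp1 0.26, Xirp2 0.31 and Smpx 0.35, and with the added one 0.23, 0.068, 0.016, 0.24, 0.26, 0.068, 0.0081, 0.059, 0.21, 0.15, 0.21 and 0.24 in the same order. Tnni3 was -8.7e-05 without a filter, -0.0096 with voom, -1.5e-04 without mitochondrial genes and -0.0093 with the block. Without 1 library, ranges that crossed 0 were Mybpc3 -0.29 to 0.16, Tnnt2 -0.15 to 0.21, Tnni3 -0.13 to 0.19, Myom2 -0.21 to 0.22, Actn2 -0.13 to 0.13, Ankrd1 -0.25 to 0.058 and Smpx -0.20 to 0.11.

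With 3 hearts a group, a value that was not called is not shown to be absent. Tnni1 had the fewest counts of the set. Over all genes, DESeq2 called 752 higher and 653 lower, and the block left 15 higher and 13 lower.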
